A study of Mus musculus with 4 samples.

Results

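The 36 genes described here encode aminoacyl-tRNA synthetases, the enzymes that charge each tRNA with its amino acid. They were chosen by name, as 20 cytosolic and 16 mitochondrial enzymes, and every probe of these genes on the array was used. All 36 had a named probe. They were covered by 44 of the 39429 probes, 22 of cytosolic and 22 of mitochondrial enzymes, with 1 probe for 28 genes and 2 probes for the other 8. RAW 264.7 cells, a macrophage-like line from BALB/c mice transformed by Abelson leukaemia virus, were left untreated or kept with Lactobacillus bulgaricus, a lactic acid bacterium of fermented milk, at a multiplicity of infection of 10 for 1, 4 or 6 h. Each of the 4 groups was measured on 1 array of RNA pooled from 3 cultures. On each array Cy5 carried the sample and Cy3 a common reference, described as RNA pooled from the groups, and dyes were not swapped. The 4 arrays shared 1 slide in the order of the times, and the place on the slide cannot be told apart from time. There is no replicate array, so no difference below carries a p-value or a spread between cultures.

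Cells carry separate synthetase sets for the cytosol and for mitochondria, and the mitochondrial enzymes are encoded in the nucleus like the cytosolic ones. Gars and Kars are exceptions, since each encodes both the cytosolic and the mitochondrial form of its enzyme. Several cytosolic enzymes form the multisynthetase complex. When amino acids are short, uncharged tRNA activates the kinase GCN2, encoded by Eif2ak4, translation of the factor ATF4 increases, and many cytosolic synthetase genes are induced. Wars, the tryptophan enzyme, is a known interferon-induced gene in macrophages.

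The ratio compares each sample with the reference on its own array, and a difference is the log2(Cy5/Cy3) of a treated array minus that of the untreated array. A gene called high or low in the ratio below, or standing at a value with no colour named, is described by this difference. A gene was measured where a probe was well above background in both colours on both arrays, as the scanner software judged it. All 20 cytosolic and 15 of the 16 mitochondrial genes were measured at 1 and 6 h, and 19 and 15 at 4 h. The exceptions were Nars2, not well above background in most channels, and at 4 h Mars1 (methionine; listed as Mars), whose spot was marked an outlier there. With that spot kept, Mars1 stood at 0.11. Error can be given from repeat spots and from the scanner's error model, and neither covers the spread between cultures. Probes spotted several times had a standard deviation of 0.13 between spots in the log2 difference at each time (227 to 228 probes). The scanner's own error of a log2 difference was 0.29 to 0.46 for measured synthetase probes, with a median of 0.29.

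As a class the synthetases stayed close to the untreated level relative to the reference. The cytosolic median difference was 0.05 at 1 h, -0.02 at 4 h and -0.02 at 6 h. The mitochondrial median was 0.03, -0.06 and -0.12 at the same times, beside 0.06, 0.00 and -0.01 over all 10368, 10337 and 10309 genes measured. The mitochondrial median thus lay below the cytosolic one by 0.02, 0.04 and 0.09, with no error for these gaps. With the deposited log10 ratios, turned to log2, the 6 h medians were -0.20 and -0.02, a wider gap. Before loess normalization within the arrays, the median log2 ratio of all probes was -1.08 on the 1 h array and -0.04 to 0.09 on the others. With median centring in place of loess, the 1 h medians were 1.03 and 0.78 and that of all genes 0.86. At 1 h, 14 of 20 cytosolic and 11 of 15 mitochondrial genes were above 0, as were 70.6% of all genes. At 4 h, 9 of 19 cytosolic genes and 2 of 15 mitochondrial genes were above 0, against 50.9% of all genes. At 6 h the counts were 5 of 20 and 3 of 15, against 47.9%. Most members of both classes thus lay slightly below the untreated ratio at 6 h.

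Differences of 0.5 or more on the log2 scale were few and all downward. At 1 h, Wars (-0.72) and Cars, the cysteine enzyme (-0.56), were lower by that much, 2 of 35 synthetases against 0.81% of all genes. At 4 h, Sars2, the mitochondrial serine enzyme (-0.53), was the single one of 34, against 2.22%. At 6 h, Wars (-0.61) and Yars2, the mitochondrial tyrosine enzyme (-0.51), were the 2 of 35, a share of 5.71% beside 5.11% of all genes. No synthetase was higher by 0.5 at any of the 3 times, against 1.89%, 2.17% and 3.18% of all genes, and none differed by 1 in the mean of its probes. Over all genes a difference of 1 upward was seen in 0.328%, 0.242% and 0.456%, and downward in 0.0482%, 0.213% and 0.466%.

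**Figure D1:**
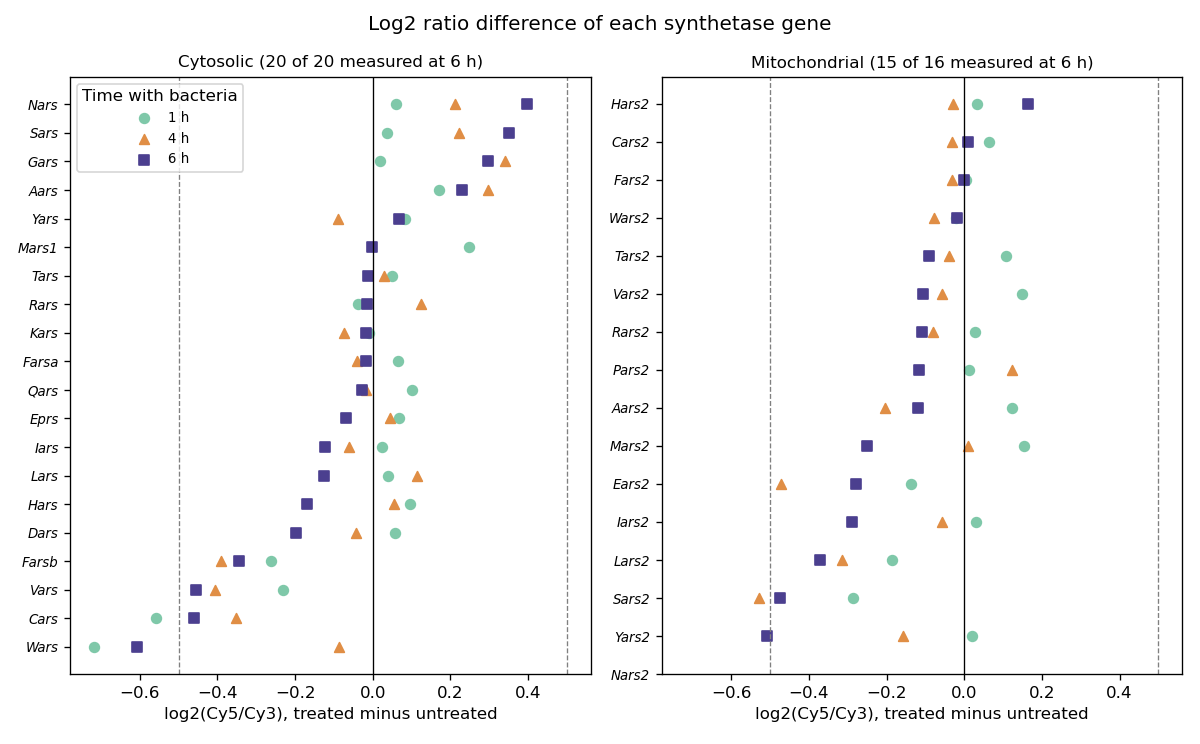
Difference in log2(Cy5/Cy3) between each treated array and the untreated array for the 20 cytosolic (left) and 16 mitochondrial (right) synthetase genes, ordered by the 6 h value. Circles, triangles and squares mark 1, 4 and 6 h, dashed lines mark a difference of 0.5, and each point rests on 1 array per group. No point lies right of 0.5, Wars and Cars lie left of -0.5 at 1 h, and Nars2 has no measured value.

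Among the cytosolic enzymes the highest ratio differences at 6 h were those of Nars (asparagine, 0.40), Sars (serine, 0.35), Gars (glycine, 0.30) and Aars (alanine, 0.23). The same genes stood at 0.06, 0.04, 0.02 and 0.17 at 1 h, and at 0.21, 0.22, 0.34 and 0.30 at 4 h. These differences are close to the scanner error of 1 probe. The single colours of these genes differ, as the signals on each array show. For Sars, the processed Cy5 signal was 15142 in intensity units untreated, 17983 at 1 h, 20749 at 4 h and 24710.0 at 6 h. The Cy3 signal of the reference was 15172, 16900, 17314 and 19292 on the same arrays. Both colours of Sars were highest at 6 h. After scaling between arrays its Cy5 difference was -0.05, 0.29 and 0.51 and its Cy3 difference -0.09, 0.06 and 0.15, so the sign at 1 h depends on the scaling in both colours.

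Gars had Cy5 signals of 24905 untreated and of 28441, 33451 and 34300 with bacteria. Its reference signals were 32075, 37274, 36693 and 40507. After scaling between arrays the Cy5 difference of Gars was 0.11, 0.43 and 0.45, and its Cy3 difference 0.10, 0.09 and 0.16. The sample colour of Gars was thus above untreated at every time, and by more than the reference at 4 and 6 h. Nars differed from this: its Cy5 signal was 2391, 2318, 2472 and 2602. Its reference signal was 3129, 2851, 2410 and 2428. The scaled Cy5 difference of Nars was -0.14, -0.10 and -0.02 and its Cy3 difference -0.20, -0.31 and -0.41, so its higher ratio goes with a lower reference signal. In the processed signals the Cy5 difference of Nars was 0.05 at 4 h and 0.12 at 6 h, so its sign at those times depends on the scaling.

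Aars was the member whose single colours differed most from the untreated array at 1 and 6 h. Its Cy5 signal was 10749 untreated, 6968 at 1 h, 9734 at 4 h and 4864 at 6 h. Its Cy3 signal was 13526.5, 8318, 10169.5 and 5278 on the same arrays. Both colours were lowest on the 6 h array and highest on the untreated array. The scaled differences were -0.84, -0.56 and -1.52 in Cy5 and -1.01, -0.86 and -1.75 in Cy3, and the ratio difference was 0.17, 0.30 and 0.23. The sample colour of Aars alone and its ratio to the reference, which is described as a common pool, point in opposite directions.

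Promoters are shown for Aars, Gars and Tars. These were the members with the letters of the ATF4 composite element in the 250 bases before the start of the gene. The motif searched was TGATGNAA on both strands. It occurred in 3 of 28 synthetase promoters (27 genes matched by symbol) and in 3.45% of 32851 promoters of the same length. Sequences and starts are those of RefSeq on GRCm38.p6, printed 5′ to 3′ on the strand of the gene, with the motif in capitals. The capitals read TTGCATCA or TTTCATCA because the match lies on the opposite strand in all 3. No promoter was used here for Cars, Hars, Hars2, Lars, Nars, Pars2, Rars, Vars or Wars.
Aars (chr8:111033592-111033841, plus strand): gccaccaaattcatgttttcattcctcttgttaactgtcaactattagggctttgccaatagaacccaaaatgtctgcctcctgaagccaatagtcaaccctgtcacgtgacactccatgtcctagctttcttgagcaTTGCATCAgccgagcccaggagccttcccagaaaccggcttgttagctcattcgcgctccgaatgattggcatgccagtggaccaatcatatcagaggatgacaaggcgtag
Gars (chr6:55037751-55038000, plus strand): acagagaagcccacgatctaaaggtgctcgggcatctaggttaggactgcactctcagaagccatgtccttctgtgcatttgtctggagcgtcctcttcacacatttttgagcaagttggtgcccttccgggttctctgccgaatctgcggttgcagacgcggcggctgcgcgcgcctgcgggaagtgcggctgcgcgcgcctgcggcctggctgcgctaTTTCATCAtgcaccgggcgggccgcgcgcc
Tars (chr15:11399659-11399908, minus strand): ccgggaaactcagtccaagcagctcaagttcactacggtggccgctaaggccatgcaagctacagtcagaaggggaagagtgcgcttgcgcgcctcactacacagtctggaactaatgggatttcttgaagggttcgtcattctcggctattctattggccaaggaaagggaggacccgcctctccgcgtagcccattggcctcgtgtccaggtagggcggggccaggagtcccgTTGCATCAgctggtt

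The match began 112 bases before the start of Aars, 30 before that of Gars and 15 before that of Tars, the threonine enzyme. At 6 h the ratio differences of these genes were 0.23, 0.30 and -0.01. Tars was at 0.05 at 1 h and 0.03 at 4 h, and its scaled Cy5 difference of -0.05, -0.28 and -0.65 was close to its Cy3 difference of -0.10, -0.31 and -0.64. In scaled Cy5 at 6 h Gars was thus above untreated (0.45), and Aars (-1.52) and Tars (-0.65) were below. The gaps between the ratio differences of these genes were at most about the scanner error of 1 probe. The part of the motif in these values was not tested. The gamma-activated site TTCNNNGAA was found in Aars, Kars and Nars2 and in 7.02% of all promoters, and the interferon response element in Qars and in 2.98%. The cyclic AMP response element TGACGTCA was in 0 of the 28 and in 1.55% of all. A match is a stretch of letters, and binding was not measured.

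The lowest cytosolic ratio differences at 6 h, beside Wars, were those of Cars, Vars and Farsb. Cars had Cy5 signals of 5288 untreated, 6788 at 1 h, 7311 at 4 h and 7508 at 6 h. Its reference signals were 4111, 7980, 7457 and 8066. The untreated array was lowest in both colours. The scaled Cy5 difference of Cars was 0.37, 0.59 and 0.51 and its Cy3 difference 0.93, 0.94 and 0.97, which gave ratio differences of -0.56, -0.35 and -0.46. Cars was thus lower in the ratio and higher in the sample colour at each time.

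The same order of colours held for Farsb and Vars. Farsb encodes the beta subunit of the phenylalanine enzyme. Its ratio difference was -0.26, -0.39 and -0.34, with Cy5 at 0.44, 0.42 and 0.43 and Cy3 at 0.70, 0.81 and 0.77. Farsa, which encodes the alpha subunit, stood at 0.07, -0.04 and -0.02 in the ratio. Both subunits are needed for the enzyme, and their ratios differed at each time, by about the scanner error of a probe. Vars, the valine enzyme, had ratio differences of -0.23, -0.41 and -0.45, with Cy5 at 0.17, 0.11 and 0.03 and Cy3 at 0.40, 0.52 and 0.48.

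Wars had the lowest mean ratio difference at 1 and 6 h, and its value rests on 1 of its 2 probes. The probe designed on transcript NM_001164314 had a Cy5 signal of 7308 untreated and of 3510, 6632 and 4068 after 1, 4 and 6 h. The reference on that probe gave 4093, 5955, 7329 and 5023. It was below the reference on the treated arrays and above it on the untreated array, with ratio differences of -1.47, -1.01 and -1.18. The probe designed on NM_011710 had Cy5 signals of 1516, 1403, 992 and 1525. Its reference signals were 1071, 1040, 359 and 1148, lowest at 4 h. Its ratio differences were 0.03, 0.83 and -0.03.

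The Wars probes were 1.50, 1.84 and 1.15 apart at 1, 4 and 6 h. The other 5 synthetase genes with 2 measured probes differed by 0.0017 to 0.33 between probes, with a median of 0.07 over 15 comparisons. The mean of both Wars probes was -0.72, -0.09 and -0.61. No direction for Wars is given by both probes at 1 or 4 h. Without Wars, 1 cytosolic gene was lower by 0.5 at 1 h (Cars) and 0 at 6 h.

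**Figure D2:**
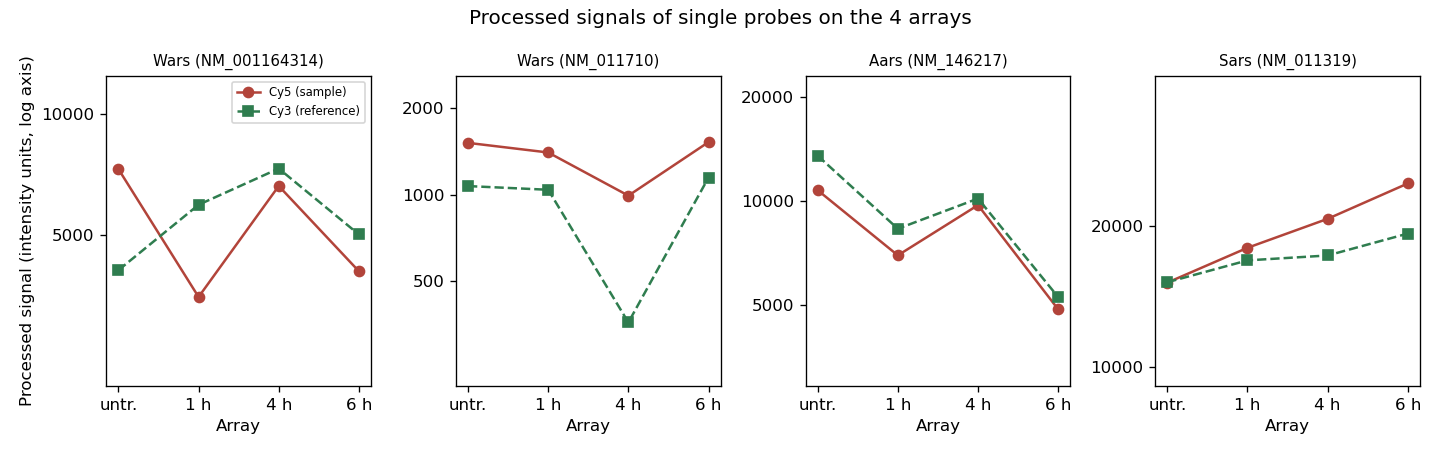
Processed signal in intensity units (log axis) of 4 single probes on each of the 4 arrays, with the sample in Cy5 as circles and the common reference in Cy3 as squares, 1 array per point. The first Wars probe is lowest in Cy5 at 1 h (3510), the second is lowest in both colours at 4 h, both colours of Aars are lowest at 6 h, and both colours of Sars are highest at 6 h.

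The reference colour moved for many synthetases. The Cy3 signal after scaling differed from the untreated array by 0.5 or more in 5 of 35 genes after 1 h, then in 7 of 34 and in 8 of 35. Over all genes the shares were 6.87%, 8.68% and 12.9%. The sample colour did so in 4, 4 and 9 synthetases, against 6.75%, 12.2% and 20.1% of all genes, and both colours together in 2, 3 and 6, against 3.74%, 5.52% and 8.92%. Across synthetase genes the Cy5 and Cy3 differences had a Pearson correlation of 0.83, 0.84 and 0.88 (n = 35, 34 and 35), and 0.78, 0.75 and 0.76 across all genes. Both colours of a gene come from the same spot on the same array, and genes are not independent replicates. The reference is described as 1 RNA pool. If it was the same RNA on every array, its part of these differences is not a difference between the cells. What moved the reference colour was not tested.

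**Figure D3:**
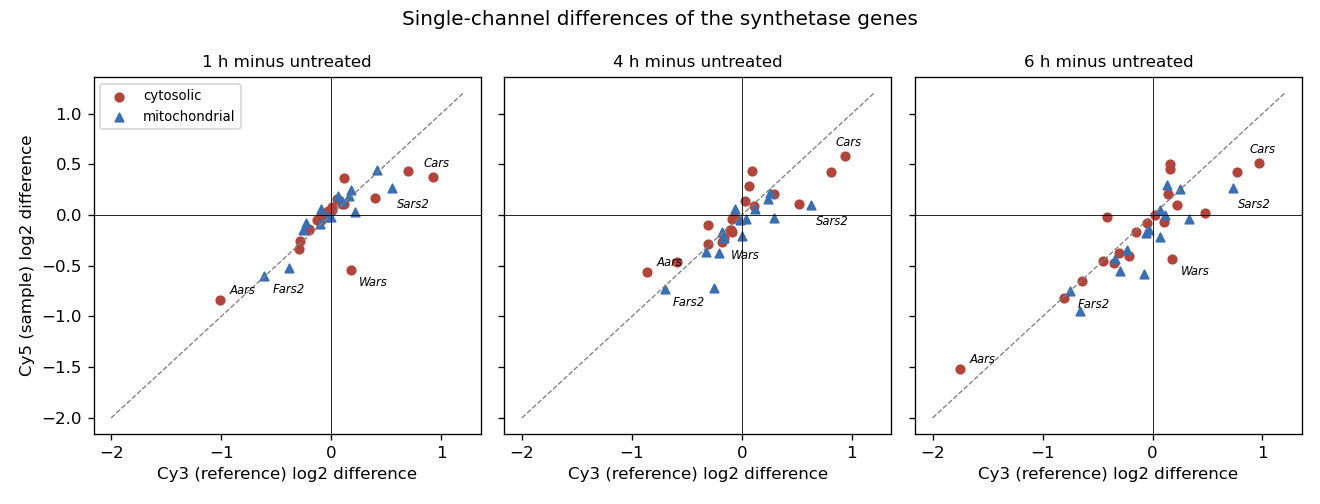
Difference from the untreated array in the sample colour (Cy5, vertical, log2) against that in the reference colour (Cy3, horizontal, log2) for each measured synthetase gene at 1, 4 and 6 h, with cytosolic genes as circles and mitochondrial genes as triangles. The dashed line marks equal differences. Most genes lie along it, Aars far to the lower left (-1.75 and -1.52 at 6 h), and Cars and Sars2 lie to the right and below it.

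In the sample colour alone, the cytosolic median was 0.02, -0.04 and -0.07 and the mitochondrial median 0.03, -0.05 and -0.18, beside 0.06, 0.05 and 0.04 over all genes. With the processed signals in place of the scaled ones, the cytosolic median was 0.18, 0.10 and 0.0029 and the mitochondrial one 0.07, -0.29 and -0.18, beside 0.16, 0.06 and 0.05. The sign of the cytosolic median in Cy5 at 4 and 6 h therefore depends on the scaling, and that of the mitochondrial median does not. The mean Cy5 signal over background was 49.9 untreated and 45.2, 39.7 and 34.8 at 1, 4 and 6 h, and in Cy3 37.6, 37.6, 33.6 and 33.1. The part of this in the Cy5 medians was not tested.

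Among the mitochondrial enzymes, Yars2 and Sars2 had the lowest ratio differences at 6 h, and their colours differed. Yars2 had Cy5 signals of 4291 untreated and of 4619, 3487 and 2924 after 1, 4 and 6 h. Its reference signals were 3560.0, 3515, 3340.2 and 3554. The sample was lowest at 6 h while the reference stayed within a narrow range. The scaled Cy5 difference of Yars2 was -0.02, -0.37 and -0.59 and its ratio difference 0.02, -0.16 and -0.51. At 1 h the processed Cy5 difference was 0.11, so that sign depends on the scaling. With quantile normalization between arrays its ratio difference at 6 h was -0.48, which no longer passes 0.5, while that of Sars2 was -0.51.

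Sars2 had Cy5 signals of 1302, 1607, 1411 and 1576 in the same order. Its reference signals were 749, 1262, 1278 and 1297. The ratio differences of -0.29, -0.53 and -0.47 thus came with a sample colour that was higher, by 0.26, 0.10 and 0.26, and a reference that was higher still, by 0.55, 0.63 and 0.74. Lars2, the mitochondrial leucine enzyme, had ratio differences of -0.19, -0.32 and -0.37, with a scaled Cy5 of 0.03, -0.03 and -0.04. In the processed signals its Cy5 was at -0.09, -0.29 and -0.17, so the sign at 1 h depends on the scaling.

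Ears2, the mitochondrial glutamate enzyme, stood at -0.14, -0.47 and -0.28 in the ratio. Its Cy5 signals were 916, 859, 569 and 435, and its reference signals 679, 713, 647 and 394. Both colours of Ears2 were lowest at 6 h. Fars2, the mitochondrial phenylalanine enzyme, had ratio differences of 0.0047, -0.03 and 0.00064, with Cy5 at -0.61, -0.73 and -0.75 and Cy3 at -0.61, -0.70 and -0.75. The sample and reference colours of Fars2 were lower together, and its ratio stayed at the untreated level. Hars2, the mitochondrial histidine enzyme, was the highest of its class at 6 h, at 0.16.

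The other 9 measured mitochondrial genes had ratio differences between -0.29 (Iars2) and 0.0089 (Cars2) at 6 h. Aars2 (alanine) stood at 0.12, -0.20 and -0.12, and Rars2 (arginine) at 0.03, -0.08 and -0.11. The Aars2 probe was dim, with Cy5 signals of 56.7, 84.7, 34.8 and 34.4. With the deposited log10 ratios, turned to log2, its difference at 1 h was 0.62. Pars2 (proline), for which 1 of 2 probes was measured, stood at 0.01, 0.12 and -0.12. Wars2, the mitochondrial tryptophan enzyme, lay within 0.1 of the untreated ratio at each time in the mean of its 2 probes, at -0.02, -0.08 and -0.02. Both Wars2 probes were dim, with untreated Cy5 signals of 107 and 99.8. At 4 h they were at 0.09 and -0.24, with scanner errors of 0.34 and 0.36. Mars2, which charges the mitochondrial methionine tRNA, went from 0.16 at 1 h to 0.01 at 4 h and -0.25 at 6 h. The probes of Tars2 gave like ratios but unlike colours. One stood at 0.37, 0.37 and 0.39 in scaled Cy5 and at 0.20, 0.33 and 0.45 in Cy3. The other stood at -0.66, -1.10 and -1.25 in Cy5 and at -0.71, -0.97 and -1.13 in Cy3. A probe pair of the same gene thus gave opposite directions in the sample colour and similar ratios.

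A second probe of Vars2 was well above background on the untreated array alone. Its Cy5 signals were 413, 24.7, 6.63 and 11.3 and its reference signals 295, 23.9, 35.4 and 7.67. Measured against the lowest signal well above background, or its own level where higher, its Cy5 was lower by at least 3.03-fold at 1 h, 3.43-fold at 4 h and 3.28-fold at 6 h. In the reference colour the bounds were 2.43-fold at 1 h, 2.24-fold at 4 h and 2.55-fold at 6 h. The first Vars2 probe had a ratio difference of 0.15, -0.06 and -0.11 and the second entered no ratio.

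The 8 enzymes of the multisynthetase complex that are members here (Eprs, Iars, Lars, Mars1, Qars, Rars, Kars and Dars) had median ratio differences of 0.05, -0.02 and -0.05. At 6 h all 8 were below 0, between -0.20 (Dars, aspartate) and -0.0028 (Mars1), and none differed by 0.5 at any time. All but Dars were below by less than 0.13, the standard deviation between repeat spots. In the processed signals at 6 h Rars stood at -1.16 in Cy5 and -1.29 in Cy3, and Mars1 at -0.61 and -0.67. Their ratios were thus slightly above 0 there, and their sign depends on the processing. Of all measured genes 47.9% were above 0 at that time. Of the enzymes for the larger aliphatic amino acids, Iars (isoleucine) stood at 0.02, -0.06 and -0.12 and Lars (leucine) at 0.04, 0.11 and -0.12. Kars (lysine) stood at -0.0099, -0.08 and -0.02, and Qars (glutamine) at 0.10, -0.02 and -0.03. These genes lay within 0.13 of the untreated ratio at every time.

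The arginine enzyme Rars had Cy5 signals of 708, 470, 456 and 317 untreated and at 1, 4 and 6 h. The reference gave 540, 389, 304 and 222. Rars was highest on the untreated array in both colours, with ratio differences of -0.04, 0.12 and -0.01. Eprs, which joins the glutamate and proline enzymes in 1 protein, had a dim probe, with Cy5 signals of 85.0, 88.4, 71.7 and 35.7 and reference signals of 86.4, 86.2, 70.2 and 36.7. Its ratio difference was 0.07, 0.05 and -0.07. The median of the 8 complex genes at 6 h was -0.39 in scaled Cy5 and -0.26 in Cy3. Of the non-catalytic scaffold genes, at 6 h Aimp1 stood at 0.05, Aimp2 at -0.29 and Eef1e1 at 0.01. Outside the complex, Hars (histidine) stood at 0.10, 0.05 and -0.17 and Yars (tyrosine) at 0.08, -0.09 and 0.07. The Yars probe was dim, with an untreated Cy5 signal of 59.8.

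Genes around the synthetases were taken from lists. Of all genes, 1.89%, 2.17% and 3.18% were higher by 0.5 at 1, 4 and 6 h, and 0.81%, 2.22% and 5.11% were lower. Of the 9 genes of amino acid sensing and ATF4 activation, 1 was lower by 0.5 at each time and 0 were higher, with medians of 0.10, -0.11 and -0.28. That gene was Impact, an inhibitor of GCN2 activation, at -0.52, -0.57 and -0.78. Its sample colour stood at 0.03, 0.15 and -0.18 and its reference at 0.56, 0.73 and 0.59. Atf4 itself, with 2 probes, was at 0.10, -0.49 and -0.28, with scaled Cy5 at 0.12, -0.56 and -0.13 and Cy3 at 0.02, -0.07 and 0.15. The higher processed Cy5 signal of its probes was 41199 untreated and 61013, 44365.5 and 61131 with bacteria. In Cy3 it was 39274, 51243, 57463 and 72734. The direction of Atf4 in Cy5 at 4 and 6 h thus depends on the probe or the scaling. Of 14 measured ATF4 targets other than synthetases, 3 were higher and 1 lower by 0.5 at 1 h, 0 and 2 at 4 h, and 2 and 4 at 6 h, with medians of 0.12, -0.06 and -0.01. The largest differences of the list at 6 h were downward. Chac1, a glutathione-degrading enzyme, stood at 1.32, -0.88 and -1.73, with Cy5 at 1.64, -0.34 and -0.77 and Cy3 at 0.32, 0.54 and 0.96. The secreted hormone gene Stc2 stood at -0.91, -1.15 and -1.52, with Cy5 at -0.04, -0.18 and -0.55 and Cy3 at 0.87, 0.97 and 0.97, so most of its lower ratio lay in the reference colour. The stress factors Atf3, at 0.59, 0.13 and 0.94, and Ddit3, at 0.39, -0.04 and 0.89, were high at 6 h.

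Of 8 measured amino acid transporters, 1 was lower by 0.5 at 6 h, against 5.11% of all genes. This was Slc38a2, a neutral amino acid transporter, at -1.21, and the list median was 0.08, 0.02 and -0.30. In the proofreading list, 1 of 4 was higher by 0.5 at 6 h, against 3.18% of all genes. This was the deacylase gene Dtd1, at 0.37, 0.26 and 0.53. Its colours were both far lower, with Cy5 at -1.34, -2.43 and -2.30 and Cy3 at -1.71, -2.69 and -2.83. None of the 3 measured cytosolic elongation factors, 4 mitochondrial elongation factors, 4 genes of mitochondrial tRNA amino acid modification and 4 selenocysteine genes differed by 0.5 at any time. Their medians at 6 h were 0.04, -0.07, -0.02 and -0.29. The shares of all genes past 0.5 were also small, as given above.

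**Figure D4:**
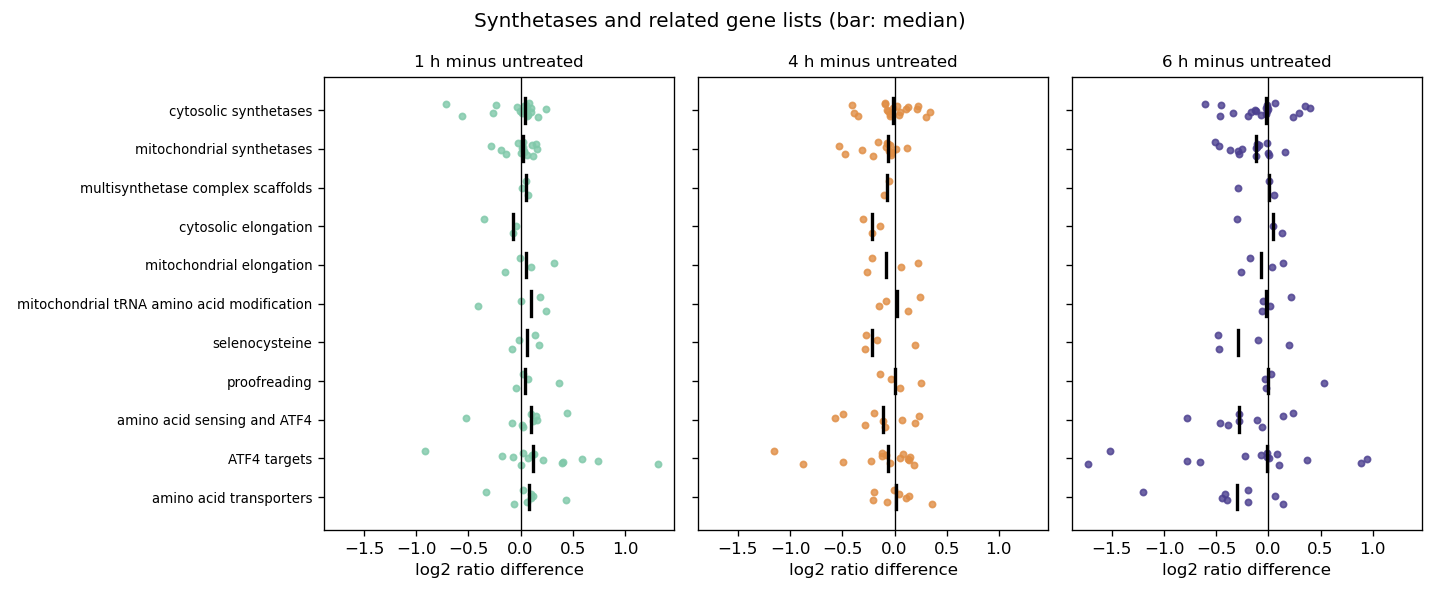
Difference in log2(Cy5/Cy3) from the untreated array at 1, 4 and 6 h for the measured genes of both synthetase classes and of 9 related lists. Each point is 1 gene on 1 array per group, and the bar is the list median. The synthetase points lie between -0.72 and 0.40, and those of the ATF4 targets reach from -1.73 to 1.32.

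The cells were checked against markers. Of 14 macrophage markers, the 9 with values on all arrays were well above background in Cy5 on each, the colour used for such counts here. Over the 9, 10 and 10 macrophage markers measured at 1, 4 and 6 h the median ratio difference was -0.02, 0.07 and -0.12. The summed Cy5 signal of the 9 with values on all arrays ranged from 55480 to 63123. Some markers of other cell types differed by more. Those of intestinal epithelium, 11 of 13 well above background on all arrays, had a median of 0.60, 0.34 and 0.49 over the 13, 12 and 11 measured. Their summed Cy5 signal was 6021 untreated, 14503 at 1 h, 9310 at 4 h and 9821 at 6 h, and between 23867 and 28579 in the reference. On every array this reference sum was above the Cy5 sum of any of the 4 groups, although the reference is described as their pool. The make-up of the reference was not tested. Exocrine pancreas and gland markers, 5 of 10 well above background, summed to 503, 1436, 595 and 2603 in Cy5, and those of fibroblasts and smooth muscle, 7 of 8, to 1661, 2802, 5216 and 4098. Of T and B cell markers 1 of 5 was well above background, and of erythroid markers 1 of 3. The part of other cells in the synthetase values was not tested, and in pooled bulk RNA fewer cells of a type and less RNA per cell cannot be told apart.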

How the data were processed

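The deposited files hold spot intensity values from 4 Agilent 2-colour arrays read with Feature Extraction 10.5.1.1, per the file headers, and the authors' deposited table of log10 ratios. The processed signals are the authors' intensity values after the scanner software's background subtraction and dye normalization, per the file headers. The log10 ratios differed from those of the scanner files by at most 0.00496 and had a median of 0 on each array, so the direction, Cy5 over Cy3, is that of the scanner.

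Median spot and background intensity values were corrected with normexp (offset 50) and normalized by loess within each array, with control and outlier spots at weight 0, in R 4.3.3 with limma 3.58.1, and log2 ratios were taken. No step between arrays was applied to the ratios. Single colours were scaled between arrays with limma's Aquantile, and the deposited processed signals were the alternative. Repeat spots of a probe and then the measured probes of a gene were averaged. A probe was measured where over 0.5 of its spots were well above background in both colours on both arrays of a comparison. Single-colour values rest on intensity, for which the number of arrays limits the precision. On the arrays 49.5 to 51.8% of spots were well above background in Cy5 and 43.5 to 45.4% in Cy3, 1.55 to 1.84% were outliers and 0 were saturated.

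Probe accessions were matched to symbols in the RefSeq gene table of assembly GRCm38.p6, which named 27655 of 39429 probes and 20971 genes. The array is annotated on mm9 per the labels, and no array coordinate is given. Synthetase genes were matched by official symbol first. Promoters came from the RefSeq table. The calculation was tested on simulated data. Summaries used Python 3.11.15 with pandas 2.3.3, and figures matplotlib 3.10.9.

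With 1 array per group there is no test. Genes were counted at a difference of 0.5 (log2), with 1 as the stricter rule, and the counts are set beside all genes. The members and the related lists were chosen with earlier results of these data known. All members may be named, and of each related list up to 4 genes with the largest difference at 6 h. Some genes of the related lists are not reported here.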

Additional observations from a re-analysis of the deposited data

How the results depend on the processing

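No paired analysis was possible because each group had 1 array, and for the same reason no replicate could be left out. The class medians lay within 0.1 of the reported ones under 13 of 14 settings, the reported one included. The exception was median centring in place of loess, under which the cytosolic median was 1.03 at 1 h and -0.21 at 6 h, the mitochondrial median 0.78 and -0.27, and the median of all genes 0.86 and -0.15. Leaving median centring out, the cytosolic median ranged from 0.02 to 0.05 at 1 h, -0.04 to 0.03 at 4 h and -0.07 to -0.01 at 6 h, and the mitochondrial one from -0.02 to 0.04, -0.09 to -0.05 and -0.20 to -0.06. Some settings could change little: a filter on Cy5 only left every class median as reported. Leaving out the Wars probes could not move a mitochondrial median.

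The counts of genes that differ by 0.5 were 2, 0 and 1 for cytosolic and 0, 1 and 1 for mitochondrial enzymes at 1, 4 and 6 h. Among all genes the shares past 0.5 in either direction were 2.70%, 4.38% and 8.29%. Counts and shares depend on the processing. Under median centring the counts were 17 (all higher) at 1 h and 3 at 6 h for cytosolic enzymes and 12, 0 and 3 for mitochondrial ones. Of all genes 80.7%, 4.95% and 12.5% passed 0.5 under that setting at 1, 4 and 6 h. In Cy5 alone the counts were 2 at 4 h and 5 at 6 h for cytosolic and 2, 2 and 4 for mitochondrial enzymes. The shares of all genes were 6.75%, 12.2% and 20.1%. With the scanner's processed signals or the deposited log10 ratios, the mitochondrial counts were 1, 2 and 2. The 1 at 1 h was Aars2, higher by 0.62. With the processed signals 7.74%, 13.1% and 19.0% of all genes passed 0.5. A normexp offset of 10 gave 2 mitochondrial genes at 4 and 6 h, no background correction 2 at 6 h, and the brightest probe in place of the mean 1 cytosolic gene at 4 h. Of all genes these gave 6.37% and 11.5%, 11.1%, and 5.00%, in the same order. The mitochondrial gene added at 4 h was Ears2, at -0.51 with the offset of 10 and -0.62 with the processed signals or deposited ratios. The one added at 6 h was Sars2, at -0.50 with that offset and -0.52 without background correction. Sars2 was also at -0.52 with the processed signals or deposited ratios and at -0.60 under median centring. Without members whose reference moved by 0.5, the count was 1 cytosolic gene at 1 h and 0 mitochondrial genes at 4 h. With all genes filtered in the same way, 1.66% and 3.42% passed 0.5 at 1 and 4 h. Without the Wars probes, a setting chosen after seeing the data, the cytosolic count was 1 at 1 h and 0 at 6 h. At a rule of 1 it was 0 for both classes at each time. Cars at 1 h turned to 0.52 under median centring and to 0.37 in Cy5 alone, Wars at 1 h to 0.20 under median centring, and Sars2 at 4 h to 0.10 in Cy5 alone. Under quantile normalization between arrays the mitochondrial count of 1 at 6 h was Sars2 (-0.51) in place of Yars2 (-0.48). The cause was not tested, except that fewer genes enter where members were left out. Signal over background in Cy5 was lower on later arrays, and genes near background, such as Nars2, had no ratio.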
